A study of Homo sapiens with 8 samples.

Results

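The 44 genes described here act in meiosis, in the piRNA pathway or as regulators of germ cells. They were taken by name from a list of symbols, with no limit on their level. The list was chosen with earlier results of these data known. All 44 symbols were found among the 19942 protein-coding genes of the expression tables. The RNA came from HCT116, an established human colorectal carcinoma line, and from UF1hypo, a line derived from it. UF1hypo is 1 clone in which exon 4 was removed from a single UHRF1 allele, so its genotype cannot be told apart from other properties of that clone. Each line carried either the control hairpin shScr or the hairpin shUHRF1 against UHRF1, delivered by lentivirus, and the infected cells were kept as puromycin-selected pools. Every library therefore came from hairpin-carrying, drug-selected cells, and the 4 groups of 2 libraries differ in the genotype at UHRF1 and in the hairpin. The study lists 1 hairpin sequence against UHRF1, so lowering of UHRF1 cannot be told apart here from other effects of that hairpin. The sources do not say that the 2 libraries of a group came from separate cultures, so the p-values below rest only on the spread between these libraries. That spread was shared over the 4 groups and drawn toward that of other genes, so it is not the spread of the groups compared alone. The study set the lines side by side to ask how far UHRF1 must be lowered before silenced genes are expressed, and that question is put here to germline genes.

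Meiosis sorts homologous chromosomes into haploid cells after they have paired, and the chromosomes are held by meiotic cohesins, joined by the synaptonemal complex and recombined at programmed DNA breaks. The piRNA pathway uses small RNAs bound to PIWI proteins to silence transposons in the germ line, with Tudor domain proteins as scaffolds. Many of these genes are silent in somatic tissue, where several have methylated CpG-rich promoters. UHRF1 reads hemimethylated DNA after replication and recruits the methyltransferase DNMT1, which copies the methylation to the new strand.

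UHRF1 itself had TPM values (a level scaled for gene length and for the library's total) of 87.5 and 98.4 in HCT116 with the control hairpin and 31.7 and 32.7 with shUHRF1, against 47.3 and 50.6 with shScr and 34.1 and 21.1 with shUHRF1 in UF1hypo. The knockdown libraries lay below their controls in both lines, with log2 changes of -1.5 (adjusted p = 0.0565) in HCT116 and -0.84 (adjusted p = 0.0406) in UF1hypo. With shUHRF1 the RNA levels of the lines overlapped. The study judged the depth of UHRF1 loss on protein, by western blot, and reported a further sharp fall in UF1hypo. Protein was not measured in these libraries. Depth was estimated at between 5.42 and 7.83 gigabases aligned per library, and replicate libraries correlated with Pearson's r of 0.979 to 0.996 across genes. The pair of UF1hypo shUHRF1 libraries stood furthest apart, and the signed difference between them followed the GC content of the transcript (Spearman's rho 0.814 over genes, which are not independent of each other, and -0.508 for the UF1hypo shScr pair). All 5 epithelial markers were expressed in every group, with summed TPM of 4342 to 5590 in HCT116 and 8800 to 12690 in UF1hypo. KRT8, KRT18 and KRT19 were called higher in UF1hypo shScr than in HCT116 shScr (log2 differences of 1.16, 1.14 and 1.02), and CDH1 was called for the difference of the knockdown effects (1.14, adjusted p = 0.0195). Of 9 spermatid genes, PRM1, PRM2, TNP1, TNP2, ODF1 and TSSK2 were listed at 0 in all 8 libraries, ACRV1 was at 0.126 to 0.407 TPM, and AKAP4 and ACTL7A were each above 0 in 1 HCT116 shUHRF1 library, at 0.0305 and 0.0678. The summed TPM of 8 leukocyte markers was 2.69 to 3.88 in UF1hypo shUHRF1 against 0.977 to 1.63 in the other groups, with CD2 at 0 in both UF1hypo shUHRF1 libraries and 7 of the 8 under 1 TPM in both. The sum of 6 fibroblast markers was 38.3 to 66.2 against 21.2 to 28.9, of which COL1A1 made up 37.7 to 65.5 in UF1hypo shUHRF1, while COL1A2 and LUM were at 0 there. The 5 markers of testis somatic cells summed to 27.5 to 81.4 across the libraries, of which AMH made up 25.7 to 79.1, and HSD3B2 and INHA were at 0 in both libraries of each group but UF1hypo shUHRF1. The part of these other markers in the results below was not tested.

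The promoters of 6 members are shown because they span the range of CpG content among the genes the results turn on. SOHLH1, MAEL, TDRD12, MEI1 and STRA8 were called higher on knockdown in UF1hypo, and GTSF1 is the member with the highest level in every library. Each line is the 250 bases before the RefSeq transcription start in GRCh38.p14, 5′ to 3′ on the gene's strand, with every CpG in capitals.
SOHLH1: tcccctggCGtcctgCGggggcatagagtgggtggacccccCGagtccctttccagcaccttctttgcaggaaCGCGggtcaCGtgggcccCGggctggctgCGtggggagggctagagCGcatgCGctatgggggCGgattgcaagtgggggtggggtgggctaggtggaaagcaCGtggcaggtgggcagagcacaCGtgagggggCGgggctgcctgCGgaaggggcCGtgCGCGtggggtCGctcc
MAEL: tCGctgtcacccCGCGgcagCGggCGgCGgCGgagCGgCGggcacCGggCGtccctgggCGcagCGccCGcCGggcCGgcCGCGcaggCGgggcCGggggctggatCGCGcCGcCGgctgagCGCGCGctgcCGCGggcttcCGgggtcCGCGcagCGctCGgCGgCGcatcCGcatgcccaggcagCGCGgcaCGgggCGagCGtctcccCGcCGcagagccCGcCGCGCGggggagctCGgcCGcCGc
TDRD12: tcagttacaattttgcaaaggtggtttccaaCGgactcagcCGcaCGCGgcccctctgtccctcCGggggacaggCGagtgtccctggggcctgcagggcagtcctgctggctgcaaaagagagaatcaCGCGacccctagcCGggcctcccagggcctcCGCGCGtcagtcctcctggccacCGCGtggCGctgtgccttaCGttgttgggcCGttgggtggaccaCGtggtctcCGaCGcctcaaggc
MEI1: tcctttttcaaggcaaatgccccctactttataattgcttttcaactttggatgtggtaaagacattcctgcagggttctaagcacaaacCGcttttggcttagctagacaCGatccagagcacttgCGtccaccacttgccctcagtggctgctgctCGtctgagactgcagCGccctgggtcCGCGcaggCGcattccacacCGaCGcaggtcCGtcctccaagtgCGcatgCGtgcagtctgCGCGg
STRA8: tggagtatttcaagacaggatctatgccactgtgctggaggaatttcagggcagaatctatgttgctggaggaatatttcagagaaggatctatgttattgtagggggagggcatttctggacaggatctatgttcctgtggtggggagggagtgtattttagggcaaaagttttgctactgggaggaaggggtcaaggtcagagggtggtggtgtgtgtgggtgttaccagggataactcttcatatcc
GTSF1: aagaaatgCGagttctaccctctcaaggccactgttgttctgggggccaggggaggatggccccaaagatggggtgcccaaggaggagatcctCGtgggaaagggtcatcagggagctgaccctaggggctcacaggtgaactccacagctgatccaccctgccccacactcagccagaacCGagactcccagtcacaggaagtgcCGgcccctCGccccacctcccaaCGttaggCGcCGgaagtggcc
The windows are chr9:135699482-135699731 (minus strand) for SOHLH1, chr1:166975332-166975581 (plus strand) for MAEL, chr19:32719517-32719766 (plus strand) for TDRD12, chr22:41699253-41699502 (plus strand) for MEI1, chr7:135231665-135231914 (plus strand) for STRA8 and chr12:54473603-54473852 (minus strand) for GTSF1. They hold 51 CpGs in MAEL, 20 in TDRD12, 19 in SOHLH1, 15 in MEI1, 8 in GTSF1 and 0 in STRA8, so the RefSeq windows of the members called higher ran from CpG-dense to CpG-free. The RefSeq start of SOHLH1 lay 5017 bases inside the gene's span in the deposited tables. That of MAEL was 13698 bases upstream of the canonical GENCODE start, but at the start in the tables, and that of STRA8 was 1923 bases upstream of the canonical start and 64 upstream of the start in the tables.

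RefSeq promoters, each 250 bases before to 50 after the start, were matched to 36 of the 44 members. The ratio of observed to expected CpGs had a median of 0.806 in the 36 members and 0.767 in 15333 protein-coding promoters, and it was at least 0.6 in 86.1% against 66.5% of them. By this measure the family had mostly CpG-rich promoters. In the 6 matched members called higher on knockdown in UF1hypo the median was 0.705, from 0 in STRA8 to 1.12 in MAEL, and in all 722 matched genes called higher it was 0.549. TEX101, with 3 CpGs in its 300 bases, was the other CpG-poor member of the 6, but its RefSeq start lay 12885 bases upstream of the start in the tables. In 23 members that stayed under 1 TPM in all libraries the median was 0.845, so CpG-rich starts were also found among the members that stayed low. The letters TCCCGC or GCGGGA (the core of the site of E2F6, a repressor of meiotic genes, on either strand) occurred in 17 of 36 member promoters, 47.2%, against 35.5% of all. The E-box CACGTG, which reads the same on both strands and can share at most 1 base with the other motif, occurred in 7 of 36, 19.4%, against 8.88% of all. SOHLH1 held it at 3 places, starting 170, 76 and 54 bases before the start, and TDRD12 at 1, starting 25 bases before it. Both motifs contain a CpG, and the shares were not adjusted for the CpG content of the promoters. In the promoters of genes tested in UF1hypo, the E2F6 letters occurred in 42.0% and the E-box in 10.1%. These matches are descriptions of the letters, and DNA methylation was not analysed here.

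**Figure D1:**
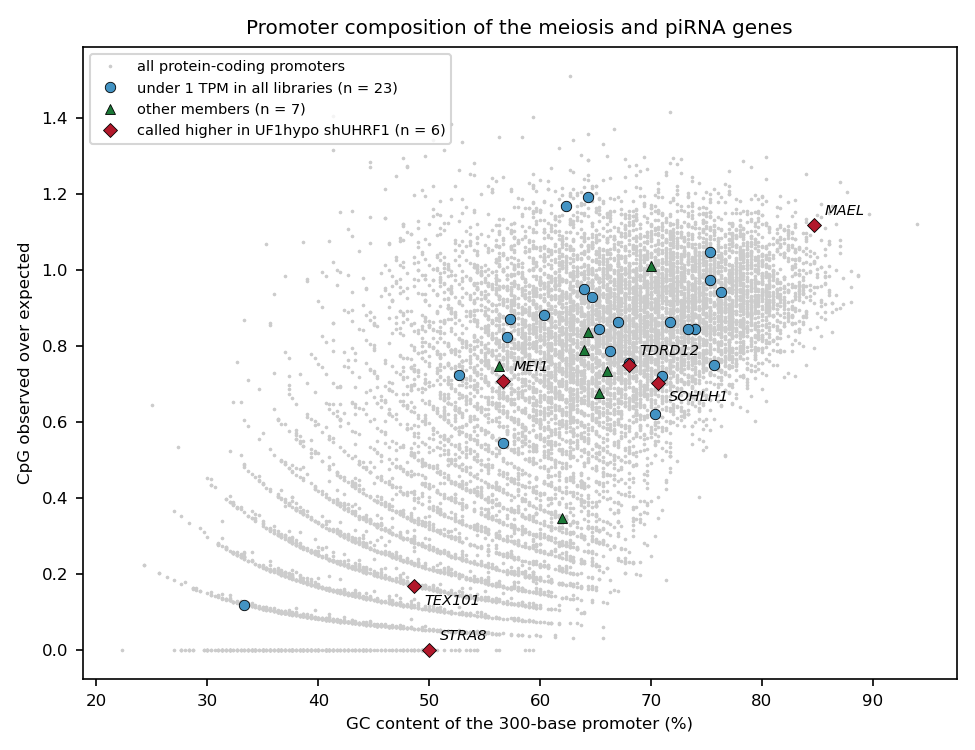
GC content (x axis, percent) and the ratio of observed to expected CpGs (y axis, no unit) of the 300-base promoters of 36 members, over 15333 protein-coding promoters in grey. Blue circles are members under 1 TPM in all libraries, green triangles other members and red diamonds members called higher on knockdown in UF1hypo; the red diamonds run from STRA8 at 0 to MAEL at 1.12.

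Most of the 44 genes were at or near silence in every group. ASZ1, HORMAD2, PIWIL1, SPO11 and SYCP1 were listed at 0 in all 8 libraries, 21 members were above 0 somewhere but under 1 TPM in all, and 18 reached 1 TPM in at least 1 library. GTSF1, PLD6, REC8, STAG3, TDRKH and TEX19 were at 1 TPM or more in every library. Between 7 and 10 members reached 1 TPM in each of the HCT116 and UF1hypo shScr libraries, and 15 and 16 did in the UF1hypo shUHRF1 libraries. The same UF1hypo shUHRF1 libraries held 13058 and 13052 protein-coding genes at 1 TPM or more, against 12193 to 12354 in the others. In bulk RNA, a low level in many cells and a high level in few cannot be told apart.

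**Figure D2:**
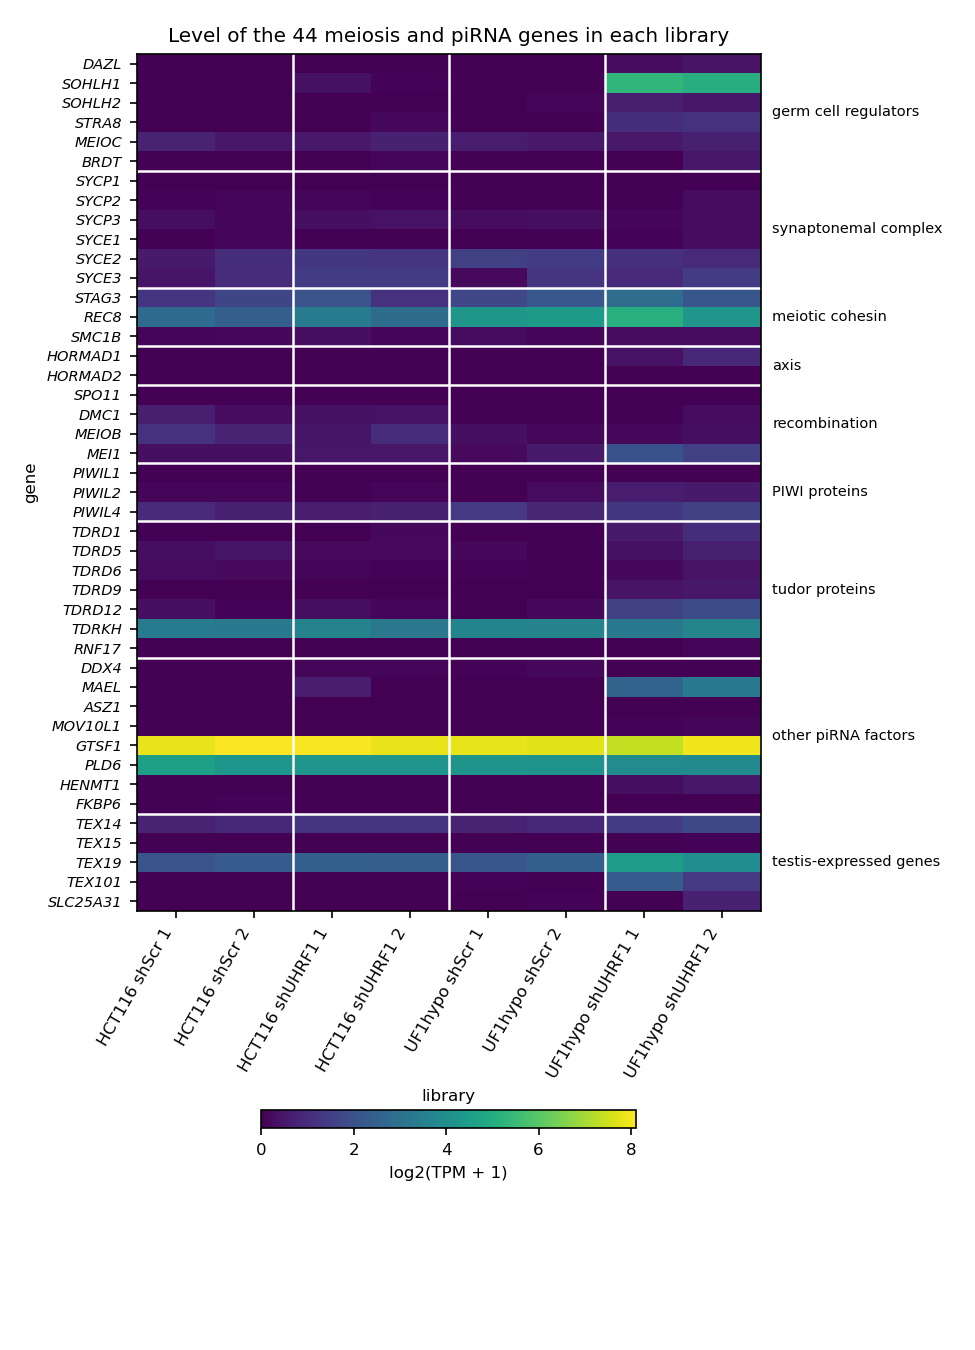
Level of each of the 44 genes (rows, grouped by role) in each of the 8 libraries (columns), as colour on the scale of log2(TPM + 1). Most rows stay dark, GTSF1 is bright throughout at 161.7 to 262.4 TPM, and SOHLH1, MAEL, TEX19, TEX101, TDRD12 and MEI1 brighten in the last pair of columns, UF1hypo shUHRF1.

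With shUHRF1 in UF1hypo, 7 of the 17 members tested were called higher and 0 lower, whereas with the same hairpin in HCT116 0 of the 10 tested were called. The genes that rose in UF1hypo were SOHLH1, MAEL, TEX19, TEX101, TDRD12, MEI1 and STRA8, with log2 changes of 1.13 to 5.15. Genes entered the test where any library of the contrast was above 1 TPM, and a call required an adjusted p (limma with the Benjamini-Hochberg method, over all genes tested) under 0.05 together with a log2 change of more than 1 in size. In UF1hypo 7.39% of the 13620 genes tested were called higher and 1.14% lower, and in HCT116 0.0472% of 12704 were called higher and 0.0236% lower. Quantile normalization moved the split over all genes in UF1hypo from 1007 higher and 155 lower to 681 and 289, and 6 members were then called higher. In HCT116 no member had an unadjusted p under 0.05 either. The same rule did not call UHRF1, the target of the hairpin, in either line, so the lack of calls does not show that levels were unchanged. The median log2 change of the tested members was 0.73 in UF1hypo, against 0.04 over all genes tested, and 0.21 in HCT116, against -0.03. Of the 7 genes called, all but TEX19 passed the filter only through the shUHRF1 libraries, where they were high, so the count of 17 is not a count of all members. Without the 1 TPM limit, 38 members were above 0 in a UF1hypo library, with a median of 0.35 against 0.06 over all such genes. In HCT116 33 members were above 0 in a library, with a median of 0.02 against -0.02. Members at 0 in both shScr libraries of UF1hypo, such as MAEL and STRA8, entered only through shUHRF1 and could only rise, so these medians are no support. Changes are on the log2(TPM + 1) scale, which understates the change of low genes and depends on the added 1 where a control is listed at 0. With 2 libraries against 2, an exact permutation test of a single gene cannot give a two-sided p below 0.33. The UF1hypo count was 4 with only that contrast's 4 libraries in the fit, 4 on FPKM and 3 where the mean TPM had to exceed 1.

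A count over the libraries, without a model, was set beside the fit. Among the members under 1 TPM in both shScr libraries, 7 of 35 in UF1hypo (MAEL, MEI1, SOHLH1, STRA8, TDRD12, TEX101 and TEX14) and 1 of 35 in HCT116 (TEX14) reached at least 1 TPM in both shUHRF1 libraries. Of all protein-coding genes so silent, 7.54% did so in UF1hypo and 0.945% in HCT116. At a limit of 0.5 TPM, 7 of 33 members did so in UF1hypo, beside 9.41% of all genes, and 0 of 31 in HCT116, beside 1.57%. At a limit of 2 TPM, 2 of 38 members (MAEL and SOHLH1, 5.26%) did so in UF1hypo, which is close to the 5.32% of all genes, and 0 of 38 in HCT116, beside 0.932%. In UF1hypo 22 of 38 members had both shUHRF1 libraries above both shScr libraries, where 31.4% of all genes did. DDX4, PLD6 and SYCE2 were the 3 members with both below, where 15.6% of all genes were. In HCT116 9 of 33 members had both shUHRF1 libraries above, beside 19.3% of all genes, and 4 (PIWIL2, PLD6, TDRD5 and TDRD6) had both below, beside 25.5% of all genes. Only genes above 0 in some library of the line were counted here. Those at 0 in both shScr libraries entered through shUHRF1 alone and could not lie below. In UF1hypo these included DAZL, HENMT1, HORMAD1, MAEL and STRA8, so the 22 members with both above are no support for a rise.

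The difference between the lines was tested directly, as the knockdown effect in UF1hypo minus that in HCT116. It was called for 5 of 18 members tested, SOHLH1, MAEL, TEX101, TDRD12 and TEX19, all with the larger rise in UF1hypo, and for 0 in the other direction. Over all 13781 genes tested, 4.54% were called higher in this sense and 0.559% lower, which is 625 and 77 genes, and the split was 357 and 112 with quantile normalization and 778 and 269 with the correction for GC content and length. The median difference was 0.46 in the members and 0.08 in all genes tested, but SOHLH1, MAEL, TEX101, TDRD12, STRA8, MEI1 and TDRD1 passed the filter only through the UF1hypo shUHRF1 libraries, where they were high, so this median is no support. Without the 1 TPM limit, 39 members above 0 in some library had a median of 0.35, against 0.07 over all such genes. DAZL, HENMT1, HORMAD1 and TEX15 entered only through the UF1hypo shUHRF1 libraries and could only rise there, so this median is no support either. MEI1 and STRA8, which rose in UF1hypo, had differences of 1.25 (adjusted p = 0.0833) and 1.04 (adjusted p = 0.0649). The UF1hypo libraries enter this contrast and the knockdown contrast alike, so the calls of one are not independent of the other. The count of 5 was 1 without either HCT116 shScr library or without HCT116 shUHRF1 replicate 2, 2 without HCT116 shUHRF1 replicate 1 or either UF1hypo shScr library, and 6 without either UF1hypo shUHRF1 library. Over the 19 or 20 alternatives run, the call of the difference was lost in 0 for SOHLH1, 4 for MAEL, 11 for TDRD12, 12 for TEX101 and 13 for TEX19.

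**Figure D3:**
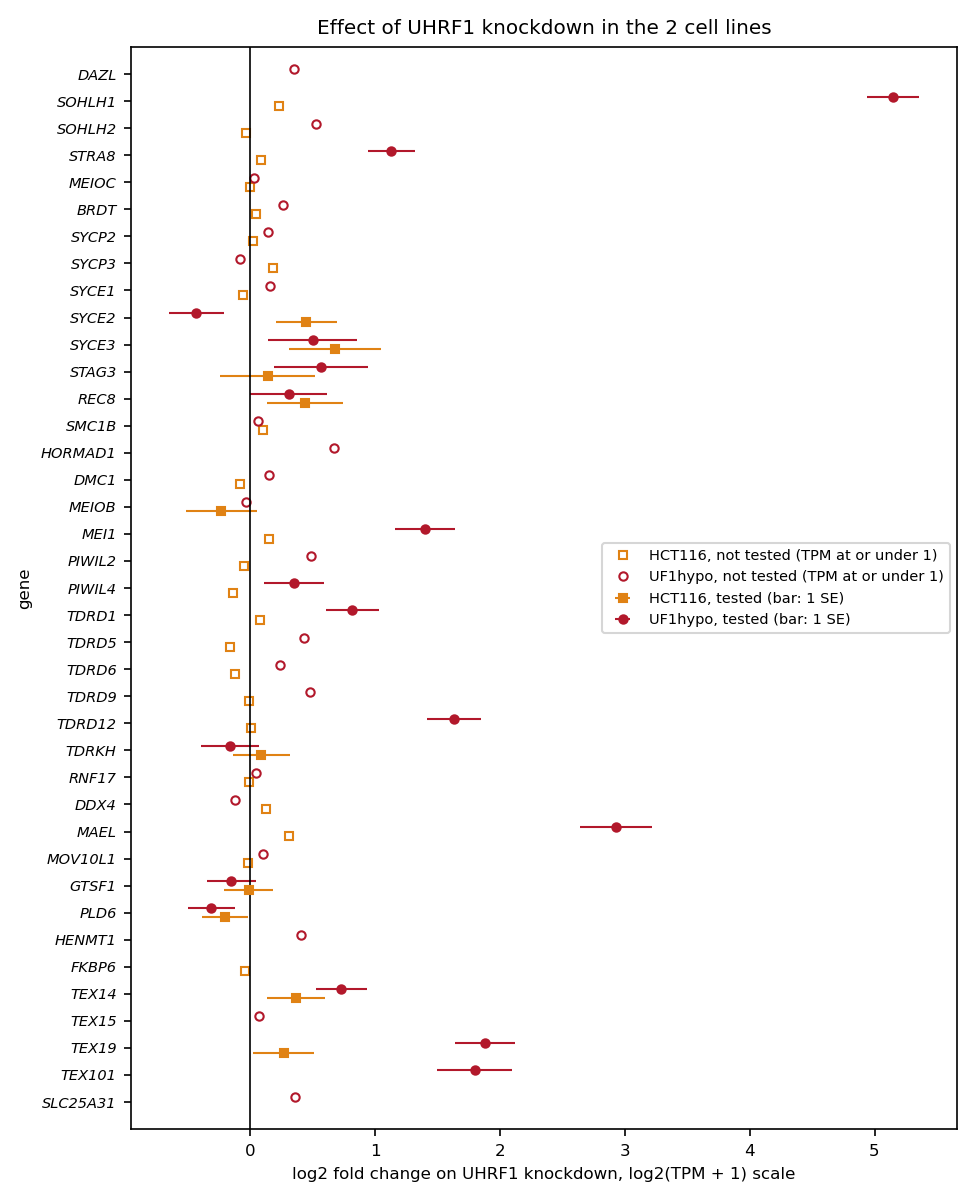
Change on UHRF1 knockdown (x axis, log2 fold change on the log2(TPM + 1) scale) of each member above 0 in the line, in HCT116 (orange squares) and UF1hypo (red circles). Filled symbols were tested and carry a bar of 1 SE, open symbols were at or under 1 TPM in all libraries of the contrast; SOHLH1 at 5.15 and MAEL at 2.93 in UF1hypo lie furthest to the right.

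Of the 6 germ cell regulators, SOHLH1 and STRA8 rose on knockdown in UF1hypo. SOHLH1, a helix-loop-helix factor of early germ cell differentiation (ENSG00000165643.11, chromosome 9, 135693407 to 135704498, minus strand), was listed at 0 and 0 TPM in HCT116 with shScr and 0.299 and 0.0603 with shUHRF1, and in UF1hypo at 0 and 0.0432 with shScr and 38.95 and 32.14 with shUHRF1. It was thus at or near 0 in 6 libraries and, per length, exceeded only by GTSF1 among the members in both UF1hypo shUHRF1 libraries. Its log2 change in UF1hypo was 5.15 (SE 0.21, adjusted p = 4.78e-06), and the difference from HCT116 was 4.92 (SE 0.30, adjusted p = 0.000141). The listed coverage of SOHLH1 was 56.7 and 39.5 in these libraries, and KCNT1, which overlaps it on the other strand, was at 1.65 and 0.998 TPM there. STRA8, which licenses germ cells to enter meiosis in response to retinoic acid (ENSG00000146857.4, chromosome 7, 135231979 to 135258492, plus strand), was at 0 TPM in both libraries of HCT116 shScr and of UF1hypo shScr, 0 and 0.132 in HCT116 shUHRF1, and 1.1 and 1.29 in UF1hypo shUHRF1. Only the UF1hypo shUHRF1 libraries exceeded 1, and just so. Its change was 1.13 (SE 0.19, adjusted p = 0.0055), and it fell short of the call with the libraries of the contrast alone, library weights, quantile normalization or a correction for GC content and length. The other 4 stayed under 1 TPM. DAZL, an RNA-binding protein of germ cells, was at 0 in 6 libraries and at 0.208 and 0.349 in UF1hypo shUHRF1. SOHLH2, the partner of SOHLH1, was at 0.615 and 0.422 there and at most 0.0997 elsewhere. MEIOC, which keeps meiotic prophase going, ranged from 0.423 to 0.715 over all libraries with the groups overlapping, and BRDT, a testis bromodomain protein, was above 0 in only 1 library of each shUHRF1 group, at 0.0704 and 0.439.

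**Figure D4:**
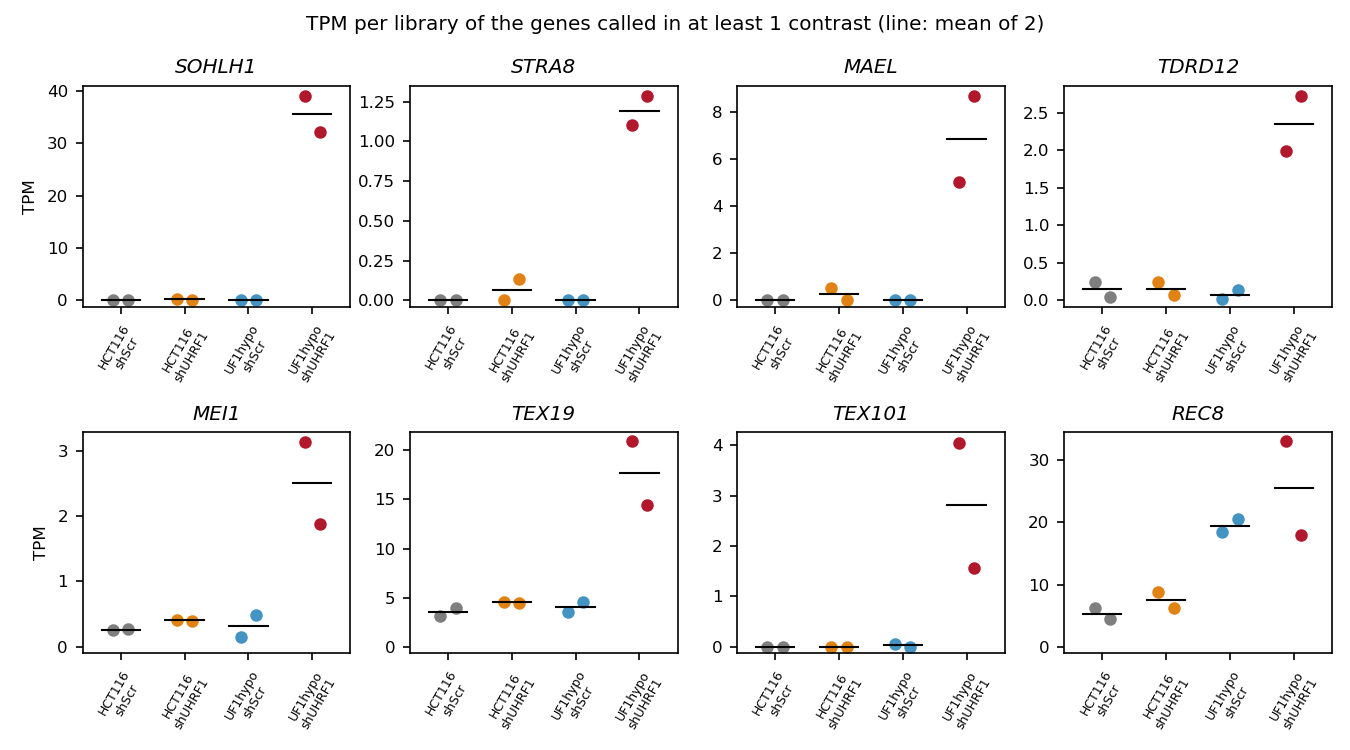
TPM (y axis, from 0, with its own range in each panel) of the 8 members called in at least 1 contrast, by group on the x axis; each point is a library and each line the mean of 2. In all panels but REC8 both UF1hypo shUHRF1 points lie above the other 6, and REC8 is higher in both UF1hypo groups than in HCT116.

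None of the structural proteins of the synaptonemal complex was called in any contrast, with 2 of the 6 tested. SYCP1, which builds its transverse filaments, was at 0 throughout, and SYCP2, SYCP3 and SYCE1 stayed at or under 0.327 TPM. SYCE2, a central element protein, was at 0.513 and 1.07 with shScr and 1.49 and 1.34 with shUHRF1 in HCT116, against 1.91 and 1.67 with shScr and 1.18 and 0.968 with shUHRF1 in UF1hypo. The shUHRF1 libraries thus lay above the controls in HCT116 and below them in UF1hypo, with changes of 0.45 (adjusted p = 0.891) and -0.43 (adjusted p = 0.253) and a difference of -0.88 (SE 0.31, adjusted p = 0.175). SYCE3, its partner in the central element, was at 0.371 and 1.02, 1.63 and 1.69, 0.144 and 1.33, and 0.981 and 1.70 TPM in the same order of groups. The UF1hypo groups overlapped, and its changes were 0.68 (adjusted p = 0.891) in HCT116 and 0.50 (adjusted p = 0.406) in UF1hypo.

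Among the 3 meiotic cohesin subunits, only REC8 was called, and only for the difference between the lines with shScr. REC8, the meiotic kleisin (ENSG00000100918.13, chromosome 14, 24171853 to 24180257, plus strand), was at 6.18 and 4.50 TPM in HCT116 with shScr and 8.87 and 6.33 with shUHRF1, and in UF1hypo at 18.4 and 20.5 with shScr and 33.0 and 17.9 with shUHRF1. The UF1hypo libraries all lay above the HCT116 libraries. UF1hypo shScr exceeded HCT116 shScr by 1.70 on the log2 scale (SE 0.30, adjusted p = 0.0152), and REC8 was the only 1 of the 10 members tested in that contrast to be called, where 2.59% of 12856 genes were called higher and 0.949% lower. Leaving out any 1 of its 4 libraries ended this call, with adjusted p from 0.0775 to 0.141. The change of REC8 on knockdown was 0.44 (adjusted p = 0.975) in HCT116, where both shUHRF1 libraries lay above both controls. It was 0.31 (adjusted p = 0.552) in UF1hypo, where the libraries overlapped. STAG3, the meiotic partner of REC8 in the cohesin ring, was at 1.34 and 2.23 with shScr and 3.16 and 1.22 with shUHRF1 in HCT116, against 2.29 and 3.63 with shScr and 6.41 and 3.54 with shUHRF1 in UF1hypo. Its groups overlapped in both lines, with changes of 0.14 (adjusted p = 1) and 0.57 (adjusted p = 0.368). SMC1B, the meiotic SMC subunit, stayed at or under 0.266 TPM.

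Of the genes of the chromosome axis and recombination, MEI1 rose. MEI1, needed for the formation of meiotic breaks (ENSG00000167077.13, chromosome 22, 41699503 to 41799456, plus strand), was at 0.261 and 0.266 TPM in HCT116 with shScr and 0.412 and 0.400 with shUHRF1, and in UF1hypo at 0.148 and 0.487 with shScr and 3.13 and 1.88 with shUHRF1. Only the last group passed 1 TPM, and its change was 1.40 (SE 0.24, adjusted p = 0.00667). The call was lost with the contrast's libraries alone, with FPKM, with library weights and without UF1hypo shScr replicate 1, where adjusted p was 0.0679. SPO11, the enzyme that makes the breaks, was at 0 throughout, as was the axis protein HORMAD2. HORMAD1, its paralog on the axis, was at 0 in 6 libraries and at 0.321 and 0.920 in UF1hypo shUHRF1. DMC1, the meiotic recombinase, was at most 0.586 TPM, highest in HCT116 and at 0 in both UF1hypo shScr libraries. MEIOB, a single-strand DNA binding protein, ranged from 0.367 to 1.23 in HCT116 and from 0.118 to 0.262 in UF1hypo, and UF1hypo shScr lay 0.72 below HCT116 shScr on the log2 scale (adjusted p = 0.214).

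None of the 3 PIWI proteins, which bind the piRNAs, was called. PIWIL1 was at 0 throughout, and PIWIL2 was at 0.585 and 0.497 in UF1hypo shUHRF1 and at most 0.191 elsewhere. PIWIL4, which in the mouse directs DNA methylation of transposons, was at 0.947 and 0.622 with shScr and 0.576 and 0.660 with shUHRF1 in HCT116, against 1.56 and 0.817 with shScr and 1.48 and 2.05 with shUHRF1 in UF1hypo. Its UF1hypo groups overlapped, and its change there was 0.35 (adjusted p = 0.392).

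Of the 7 Tudor domain proteins, which bind methylated arginines of PIWI proteins, TDRD12 rose. TDRD12 (ENSG00000173809.18, chromosome 19, 32719753 to 32829580, plus strand) was at 0.249 and 0.0454 TPM in HCT116 with shScr and 0.242 and 0.0722 with shUHRF1, and in UF1hypo at 0.0207 and 0.133 with shScr and 1.99 and 2.72 with shUHRF1. Its change in UF1hypo was 1.63 (SE 0.22, adjusted p = 0.00197) and the difference from HCT116 was 1.62 (adjusted p = 0.0213), and on FPKM the change was 0.95, under the size a call requires. TDRD1, a scaffold of the same granules, was at 0.502 and 1.06 in UF1hypo shUHRF1 and at most 0.121 elsewhere, and its change of 0.82 (adjusted p = 0.0407) was past the p threshold but not the size. TDRD9, a helicase of the pathway, was at 0.345 and 0.439 there and at most 0.0203 elsewhere. TDRD5 and TDRD6 reached 0.622 and 0.342 TPM in UF1hypo shUHRF1, RNF17 at most 0.0736. TDRKH, a mitochondrial Tudor protein that helps trim piRNAs, was the exception in level, at 9.40 and 8.70 with shScr and 11.4 and 8.19 with shUHRF1 in HCT116, against 11.5 and 11.4 with shScr and 8.68 and 11.8 with shUHRF1 in UF1hypo. Its shUHRF1 libraries overlapped their controls in both lines, and its knockdown changes were 0.09 (adjusted p = 1) and -0.16 (adjusted p = 0.685).

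Of the other 8 piRNA factors, MAEL rose. MAEL, a protein of the germ granule needed for transposon silencing (ENSG00000143194.13, chromosome 1, 166975582 to 167022214, plus strand), was at 0 TPM in both libraries of HCT116 shScr and of UF1hypo shScr, 0.542 and 0 in HCT116 shUHRF1, and 5.02 and 8.67 in UF1hypo shUHRF1. Its change in UF1hypo was 2.93 (SE 0.29, adjusted p = 0.000434), and the difference from HCT116 was 2.62 (SE 0.41, adjusted p = 0.0100). GTSF1, a zinc finger cofactor of PIWI proteins (ENSG00000170627.11, chromosome 12, 54455950 to 54473602, minus strand), was the opposite case, at 228.9 and 262.4 TPM in HCT116 with shScr and 257.4 and 229.2 with shUHRF1, and in UF1hypo at 224.0 and 213.8 with shScr and 161.7 and 239.6 with shUHRF1. Its groups overlapped within both lines, with changes of -0.01 (adjusted p = 1) and -0.15 (adjusted p = 0.655). PLD6, a mitochondrial enzyme of piRNA biogenesis, was at 23.2 and 18.2, 17.7 and 17.8, 17.4 and 16.9, and 13.9 and 13.2 TPM in the same order. Its shUHRF1 libraries lay below the controls in both lines, by 0.20 (adjusted p = 1) and 0.31 (adjusted p = 0.315) on the log2 scale. HENMT1, which methylates piRNA ends, was at 0 in 6 libraries and at 0.239 and 0.428 in UF1hypo shUHRF1. DDX4, the germ cell helicase VASA, was at 0 in both UF1hypo shUHRF1 libraries and at most 0.122 elsewhere, MOV10L1 and FKBP6 stayed at or under 0.0949, and ASZ1 was at 0.

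Of the 5 testis-expressed genes, TEX19 and TEX101 rose. TEX19, a germ cell protein that restrains retrotransposons (ENSG00000182459.5, chromosome 17, 82359247 to 82363775, plus strand) was at 3.18 and 4.01 TPM with shScr and 4.55 and 4.51 with shUHRF1 in HCT116, against 3.53 and 4.54 with shScr and 20.9 and 14.5 with shUHRF1 in UF1hypo. It was the only called gene of the 7 already above 1 TPM with shScr, and its change was 1.88 (SE 0.24, adjusted p = 0.00169) in UF1hypo and 0.27 (adjusted p = 1) in HCT116. The difference between the lines was 1.60 (SE 0.34, adjusted p = 0.0345). TEX101, a surface protein of germ cells (ENSG00000131126.19, chromosome 19, 43401496 to 43418597, plus strand), was at 0 in all 4 HCT116 libraries, at 0.0624 and 0 in UF1hypo with shScr and at 4.05 and 1.57 with shUHRF1. Its change was 1.80 (SE 0.30, adjusted p = 0.00563) and the difference between the lines 1.80 (SE 0.42, adjusted p = 0.0482), and with the contrast's 4 libraries alone the adjusted p of the change was 0.0595. TEX14, a protein of the bridges between germ cells, was at 0.743 and 0.906 in HCT116 with shScr and 1.31 and 1.39 with shUHRF1, and in UF1hypo at 0.757 and 0.909 with shScr and 1.71 and 2.40 with shUHRF1. Its shUHRF1 libraries lay above the controls in both lines, with changes of 0.37 (adjusted p = 0.939) and 0.73 (adjusted p = 0.0518). TEX15 was at 0 in 6 libraries and at 0.0349 and 0.0671 in UF1hypo shUHRF1, and SLC25A31, a germ cell ADP/ATP carrier, was at 0.0291 and 0.681 there and at most 0.0467 elsewhere.

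Some members that stayed below 1 TPM were above 0 in UF1hypo shUHRF1 alone, and others were above 0 elsewhere but higher there. Of 9 members at 0 in all HCT116 and both UF1hypo shScr libraries, DAZL, HENMT1, HORMAD1 and TEX15 were above 0 in both UF1hypo shUHRF1 libraries, as were 372 of 3316 protein-coding genes with the same zeros, 11.2%. In the fit without the TPM filter, DAZL, HENMT1, HORMAD1, PIWIL2, SOHLH2 and TDRD9 had an adjusted p under 0.05 for the knockdown in UF1hypo. Their log2 changes were 0.35 to 0.67, under the size a call requires. The share of all genes that met this looser rule was not computed. DAZL, HENMT1, HORMAD1 and TDRD9 were at 0 in both UF1hypo shScr libraries, so they entered through shUHRF1 alone and could only rise. These values are therefore no support for a rise. All the genes named from this fit were picked out after their values were seen. Their listed coverage in UF1hypo shUHRF1 was between 0.166 in TDRD9 and 2.19 in HORMAD1.

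Several members overlap another gene, and the sources do not state whether counting used the strand, so reads of such pairs cannot be told apart. REC8 overlaps IPO4 (27.9 to 79.6 TPM), SYCE2 overlaps GCDH (22.5 to 39.1 TPM), PLD6 overlaps MPRIP (48.1 to 76.2 TPM) and MEIOB overlaps FAHD1 (29.1 to 45.6 TPM), each on the other strand. PIWIL4 overlaps FUT4 on its own strand, at 3.71 to 7.70 TPM. Of the members called, MAEL, MEI1, TDRD12 and TEX19 overlap only genes at or under 0.238 TPM in all libraries, and STRA8 and TEX101 overlap none.

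Other genes of the same pathways behaved in a mixed way. Of 46 further meiosis and piRNA genes, 17 were tested for the knockdown in UF1hypo, of which 4 rose and 1 fell, beside 7.39% and 1.14% of all genes tested, and 14 in HCT116, of which 0 were called. CTCFL, BRME1 and PNLDC1 passed the filter only through the UF1hypo shUHRF1 libraries. CTCFL, the germline paralog of CTCF, was listed at 0 in 6 libraries and at 8.86 and 11.3 TPM in UF1hypo shUHRF1, a log2 change of 3.46 (adjusted p = 2.06e-05). BRME1, a partner of the recombination machinery, was at 3.77 and 4.42 there and at most 0.891 elsewhere, a change of 1.56 (adjusted p = 0.00153). PNLDC1, which trims piRNAs, was at 2.88 and 1.28 there and at most 0.763 elsewhere, a change of 1.11 (adjusted p = 0.0352). TDRD7 was at 41.2 and 64.7 there, against 23.1 and 23.9 in UF1hypo shScr and 7.82 to 11.4 in HCT116, a change of 1.1 (adjusted p = 0.0266), and it was also 1.38 higher in UF1hypo shScr than in HCT116 shScr (adjusted p = 0.0181). MND1, a cofactor of DMC1, went the other way, from 26.1 and 22.8 in UF1hypo shScr to 8.48 and 4.64 in UF1hypo shUHRF1, a change of -1.80 (adjusted p = 0.00413). Among 20 tested for a difference of the effects, CTCFL and BRME1 were called, beside 4.54% of all genes tested. MEIOSIN, the partner of STRA8, was at 2.89 and 3.42 TPM in HCT116 shScr and at 0.264 and 0.183 in UF1hypo shScr, a change of -1.76 (adjusted p = 0.00756), and stayed at or under 0.556 in UF1hypo shUHRF1. The machinery that represses germline genes was represented by 18 genes, which include E2F6, MGA, SETDB1, the DNA methyltransferases and UHRF1. All were tested and 0 were called in any contrast. Among the uncalled was UHRF1, the target of the hairpin, with changes of -1.5 (limma, adjusted p = 0.0565) in HCT116 and -0.84 (adjusted p = 0.0406) in UF1hypo. The lack of a call therefore does not show that a gene was unchanged.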

How the data were processed

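PolyA RNA of 8 libraries was sequenced in paired ends. Reads were cleaned by the authors with Fastp and placed on GRCh38 by HISAT2 2.0.4, and StringTie 2.1.4 gave the gene abundances. In the deposited tables, coverage is a read depth per base that is not scaled for library depth. Its ratio to FPKM varied between genes of the same library, so it does not compare genes. The FPKM values were scaled by the authors for gene length and aligned bases, and the deposited TPM values also to a fixed library total. No read counts were used here, so the counting error of a gene is unknown, and DESeq2, which the authors ran, was not. The largest ratio of coverage to FPKM among the expressed genes of a library was taken as its depth, 5.42 to 7.83 gigabases aligned. Between 10.9% and 13.1% of those genes lay near that ratio. The day of harvest of these libraries is not given in the sources used here.

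Records of a gene identifier were summed, and protein-coding genes were taken from GENCODE. Log2(TPM + 1) of all libraries, with a pseudocount of 1, was fitted by group in limma 3.58.1 (R 4.3.3) with mean-trended moderated variances, which leaves 4 residual degrees of freedom. Contrasts were the knockdown in each line, the difference of these effects, and the control libraries of UF1hypo against those of HCT116. They share libraries and are not independent. Genes with TPM above 1 in at least 1 library of a contrast were tested, and calls required a Benjamini-Hochberg adjusted p-value under 0.05 with a log2 change beyond 1 in either direction. Members called in any contrast, or with a mean TPM above 1, are given library by library, which made 16, and the other 28 by levels and counts. Alternatives were a pseudocount of 0.1, other filters, all annotated genes, the contrast's libraries alone, FPKM, median-ratio and quantile scaling, untrended variances, the largest record of an identifier, the replicate number as a block, library weights, a GC and length correction in 10 bins each, and each library left out in turn. A crossed block was chosen after seeing the data. Replicate numbers are shared by the groups, but nothing says that they pair libraries, and deviations of same-numbered libraries correlated at -0.40 to 0.05 between groups, so no pairing was used. The members, the further lists of meiosis and piRNA genes, repressors and markers, and the tests were chosen with earlier results of these data known. Of the 46 further symbols 45 had a row. Promoter sequences are from RefSeq (GRCh38.p14), with 8 members unmatched. The fit was tested on simulated data in which changes were given only to genes expressed in the control, so genes silent there were not covered. Python 3.11.15, numpy 2.4.6, pandas 2.3.3 and matplotlib 3.10.9 were also used.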

Additional observations from a re-analysis of the deposited data

Results flagged for a closer look

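For 5 members the knockdown effect differed between the lines by a test of the difference itself (limma, Benjamini-Hochberg). On the log2(TPM + 1) scale the effect in UF1hypo exceeded that in HCT116 by 4.92 for SOHLH1 (adjusted p = 0.000141), 2.62 for MAEL (adjusted p = 0.0100), 1.80 for TEX101 (adjusted p = 0.0482), 1.62 for TDRD12 (adjusted p = 0.0213) and 1.60 for TEX19 (adjusted p = 0.0345). In each of the 5, both UF1hypo shUHRF1 libraries lay above all 6 other libraries. The same libraries entered the test that picked the 5, so this describes them and is no further support. The share of all genes with that separation was not computed.

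Among the members given library by library, SYCE2 moved in opposite directions, with both shUHRF1 libraries above both controls in HCT116 and below them in UF1hypo. The difference of its effects was -0.88, which did not pass the threshold of the test (adjusted p = 0.175). Of the members under 1 TPM in all libraries, DDX4 moved like SYCE2. PIWIL2, TDRD5 and TDRD6 lay below the controls in HCT116 and above them in UF1hypo. In the fit without the TPM filter, the difference of the effects had adjusted p (limma) of 0.0709 to 0.198 in DDX4, PIWIL2, TDRD5 and TDRD6. The share of all genes with opposite movement was not computed.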

How the results depend on the processing

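The count of members called on knockdown in UF1hypo, 7 as reported, was 3 with a filter on the mean TPM, 4 with the libraries of the contrast alone and 4 on FPKM, and ran from 6 to 8 when each library was left out in turn. The count for the difference of the effects, 5 as reported, was 2 with a pseudocount of 0.1, with all annotated genes and with quantile normalization, and 3 with a filter on the mean TPM, on FPKM, with median-ratio scaling, with library weights and with the replicate number as a block. It ran from 1 to 6 when single libraries were left out. The single call in the clone contrast, REC8, ran from 0 to 1, and the count for HCT116 was 0 under every alternative run. Members that went from under to over the TPM limit numbered 0 in HCT116 at limits of 0.5 and 2, and 7 of 33 and 2 of 38 in UF1hypo, where 9.41% and 5.32% of all genes did so. With the replicate block, 7 members were called on knockdown in UF1hypo, 0 in HCT116 and 1 in the clone contrast, and the libraries share only a number. A crossed pairing of the UF1hypo libraries, added after seeing the data, also called 7. Of 268 alternative values of the 13 calls of single members, 214 kept the call, 54 lost it in the same direction and 0 reversed, and SOHLH1, MAEL and TEX19 kept theirs in UF1hypo throughout. The causes of these moves were not tested.

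Over all genes, calls on knockdown in UF1hypo were 516 higher and 47 lower with the contrast's libraries alone, 614 and 134 on FPKM, 476 and 63 with library weights, 591 and 64 without UF1hypo shScr replicate 1 and 1394 and 861 without UF1hypo shUHRF1 replicate 2, against 1007 and 155. In HCT116 the 6 and 3 calls became 51 and 38 with the contrast's libraries alone, 63 and 38 with library weights and 50 and 21 with the GC and length correction, and 1 and 0 with the block. For the difference, 625 and 77 became 388 and 60 with a pseudocount of 0.1, 370 and 49 with library weights, and from 153 and 18 to 1385 and 757 when libraries were left out. The tables carry no counts, so a level under 1 TPM has no known counting error.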
